A study of Mus musculus with 21 samples.

Results

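Homeostatic microglia genes are transcripts that microglia, the resident macrophages of the brain, make at high level in the undisturbed adult brain. The 9 genes Tmem119, P2ry12, P2ry13, Cx3cr1, Sall1, Siglech, Gpr34, Olfml3 and Selplg were chosen by name as known markers of this state. The choice was made with earlier results of these data known. Of the 9 genes, 9 were found among the 64361 genes of the count table. Their values are described in bulk RNA from cortex and hippocampus of a mouse model of C9orf72 amyotrophic lateral sclerosis, read with prime-seq, a protocol that counts the 3′ ends of polyadenylated transcripts. The comparison asks how these genes behaved in brain tissue whose excitatory neurons make poly-GA, a repeat protein translated from the C9orf72 expansion.

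The GA-Camk2a mice carried a GFP-(GA)175 transgene that Cre recombinase switches on, and the Camk2a promoter drove Cre in excitatory neurons of the forebrain. Controls are labelled only as ctrl, and whether they carried the Cre driver or the silent transgene is not given there. The study calls the controls of an immunofluorescence assay on this line Camk2a mice. Tissue was taken from both genotypes when the GA-Camk2a mice reached the humane endpoint, at 30 to 40 weeks. All mice had a C57BL/6J background. There were 5 control against 6 GA-Camk2a cortices, and 4 control against 6 GA-Camk2a hippocampi, and 10 of the 11 mice gave both tissues. The study's text gives the control numbers of the tissues in the reverse order, and the labels were followed here. Every library is 1 mouse and tissue, and the labels place the libraries in 2 batches that each hold both genotypes.

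Microglia keep the homeostatic programme through signals from their surroundings, above all TGF-beta, and through transcription factors such as Sall1. Its surface receptors let the cells sense neurons and injury: Cx3cr1 binds fractalkine (Cx3cl1), which neurons display, and P2ry12 directs microglial processes toward ADP. In many models of neurodegeneration, microglia that turn on Trem2-dependent genes lower several homeostatic genes at the same time, which is why these genes are used as a readout of microglial state.

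Promoters are shown for Cx3cr1, which rose in both tissues, and for P2ry12 and P2ry13, 2 ADP receptor genes that lie side by side on chromosome 3. Each window of 300 bases covers the start of the gene and lies mostly upstream of it, from RefSeq on GRCm38.p6, on the minus strand at chr9:120068247-120068546 for Cx3cr1, chr3:59262936-59263235 for P2ry12 and chr3:59210833-59211132 for P2ry13. The RefSeq table held an entry for 6 of the 9 genes. Capitals mark GAGGAAG, the core bound by ETS factors such as PU.1, where it was found on either strand.
Cx3cr1: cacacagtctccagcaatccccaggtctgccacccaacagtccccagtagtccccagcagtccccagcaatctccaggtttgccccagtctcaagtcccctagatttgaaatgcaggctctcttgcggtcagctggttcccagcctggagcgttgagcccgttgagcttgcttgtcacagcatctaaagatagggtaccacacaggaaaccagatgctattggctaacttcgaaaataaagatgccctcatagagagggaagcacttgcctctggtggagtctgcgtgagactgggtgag
P2ry12: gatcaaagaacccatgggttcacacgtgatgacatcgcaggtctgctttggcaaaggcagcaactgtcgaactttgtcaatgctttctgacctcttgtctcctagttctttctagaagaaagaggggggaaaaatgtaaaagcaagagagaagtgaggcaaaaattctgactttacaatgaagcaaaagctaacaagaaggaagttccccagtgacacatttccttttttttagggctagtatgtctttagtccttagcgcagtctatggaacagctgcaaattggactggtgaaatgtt
P2ry13: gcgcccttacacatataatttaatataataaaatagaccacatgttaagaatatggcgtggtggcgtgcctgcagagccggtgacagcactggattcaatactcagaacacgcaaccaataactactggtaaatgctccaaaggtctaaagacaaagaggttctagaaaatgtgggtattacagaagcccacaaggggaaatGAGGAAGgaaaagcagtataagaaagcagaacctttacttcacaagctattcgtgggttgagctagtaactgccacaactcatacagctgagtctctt
GAGGAAG occurred 1 time in the P2ry13 window and in 0 of the windows of Cx3cr1 and P2ry12. It was present in 13.6% of all 32851 promoter windows in the table. TGANTCA, the AP-1 core, occurred 0 times in these windows and was present in 7.81% of all windows. These are matches of letters in a window and no binding was measured here.

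Depth differed between libraries, from 1048201 to 5888102 total counts (median 1975173), and hippocampus controls had the highest median, 3732867. The transgene's GFP row held at most 2 counts in control and 4 in GA-Camk2a libraries, which is too few to check the genotype labels. The tissue labels did hold up, since 4 hippocampal genes were higher and 2 cortical genes lower in control hippocampus than in control cortex. The 9 genes were detected in all 21 libraries, with 5 to 223 counts each, so the lowest of them carry large counting error. One library stood apart in its other cell type markers: in GA-Camk2a hippocampus, mouse 41 had 557 CPM (counts scaled to the library total) summed over 13 blood leukocyte genes, against 23.3 to 29.4 CPM in the other 5 libraries of that group. In this library border macrophage genes summed to 138 CPM, endothelial and fibroblast genes to 739 CPM and proliferation genes to 70.7 CPM, each the highest value of its group. The cortex library of the same mouse had 51.1 CPM of blood leukocyte genes and lay within the range of the other cortex libraries. The hippocampus log2 fold changes of the 9 genes are therefore given with and without mouse 41. Group means and counts of separated genes include it.

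**Figure D1:**
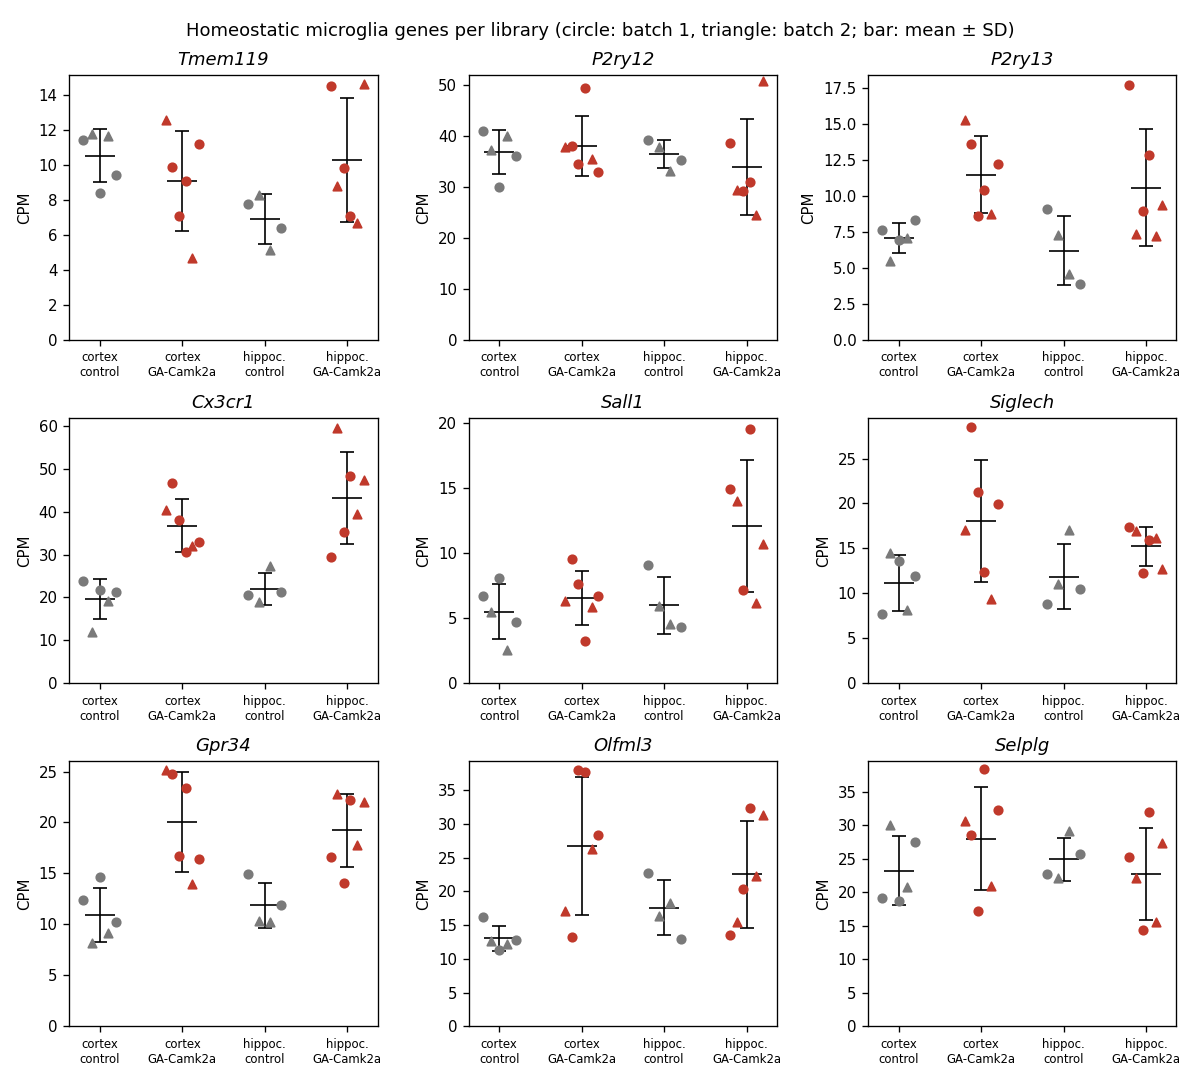
Level of each homeostatic microglia gene in CPM (linear axis from 0) in every library of the 4 groups, with circles for batch 1, triangles for batch 2 and bars for mean ± SD. Cx3cr1 is the gene whose GA-Camk2a libraries lie above every control in both tissues, whereas the P2ry12 groups overlap in both.

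In control tissue the 9 genes lay between a few and about 40 CPM, and cortex and hippocampus were alike in their order. P2ry12 was the highest, at 36.9 ± 4.31 CPM (SD, n = 5) in cortex and 36.4 ± 2.76 CPM (SD, n = 4) in hippocampus, and in each tissue every control library of P2ry12 was above every control library of the next gene. Selplg and Cx3cr1 followed, at 23.2 ± 5.17 and 19.6 ± 4.64 CPM in cortex and at 24.9 ± 3.20 and 22.0 ± 3.67 CPM in hippocampus, with overlapping libraries. Sall1 was the lowest in both, at 5.49 ± 2.08 and 5.98 ± 2.19 CPM. CPM of 3′ end counts are not divided by gene length, and the order is one of counts.

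Of the 9 genes, 0 differed between hippocampus and cortex of control mice (edgeR, adjusted p under 0.05), where 16.3% of the 14435 genes tested did. DESeq2 also called 0 members, and at an unadjusted p under 0.05 edgeR gave 1, where 30.4% of all genes tested passed. That gene was Tmem119, a membrane protein used to tell microglia from other macrophages. It was at 8.43, 9.42, 11.4, 11.6 and 11.8 CPM in control cortex and at 5.13, 6.38, 7.79 and 8.32 CPM in control hippocampus. The control tissues did not overlap for Tmem119, and its log2 fold change was -0.57 ± 0.22 (SE; edgeR, adjusted p = 0.0844). Without control 31 of cortex Tmem119 passed, at -0.65 (edgeR, adjusted p = 0.0474), and without control 37 of hippocampus Olfml3 passed, at 0.60 (edgeR, adjusted p = 0.0472). For P2ry12 the 95% interval of the log2 difference ran from -0.32 to 0.24, and for Selplg from -0.33 to 0.38.

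In cortex, 5 of the 9 genes were higher in GA-Camk2a mice and 0 were lower (edgeR, adjusted p under 0.05). The 5 were the receptors Cx3cr1, Gpr34 and P2ry13, the lectin gene Siglech and the secreted protein gene Olfml3, with rises of 1.58-fold to 2.11-fold. P2ry12, Tmem119, Selplg and Sall1 did not pass. With DESeq2, and with edgeR without the batch term, 3 of the 9 were called, Cx3cr1, Gpr34 and Olfml3. Of all 13058 genes tested in cortex, 6.35% were called higher and 6.17% lower. The median log2 fold change of the 9 genes was 0.66, against -0.01 over all genes tested. In bulk tissue, more or fewer microglia and more or less of a transcript per cell cannot be told apart.

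Among the receptors, Cx3cr1 (ENSMUSG00000052336), the fractalkine receptor, stood at 11.8, 19.2, 21.3, 21.6 and 23.9 CPM in the 5 control cortices. In the 6 GA-Camk2a cortices its lowest, median and highest levels were 30.5, 35.4 and 46.6 CPM. No GA-Camk2a library reached down to the highest control. The log2 fold change was 0.89 ± 0.15 (SE), a 1.85-fold rise with a 95% interval of 1.48 to 2.30 (edgeR, adjusted p = 0.000403). It passed in each batch alone, at 0.78 in batch 1 and 1.121 in batch 2 (edgeR, adjusted p = 0.0137 and 0.0475), and in 11 of 11 fits that left out a library.

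Gpr34 (ENSMUSG00000040229), a receptor for lysophosphatidylserine that microglia carry on their surface, was at 8.17, 9.11, 10.3, 12.4 and 14.7 CPM in controls. Its GA-Camk2a libraries ran from 13.99 through a median of 20.1 to 25.2 CPM. The lowest GA-Camk2a library lay below the highest control, and the other 5 lay above every control. Gpr34 rose by 0.84 ± 0.20 on the log2 scale (SE; edgeR, adjusted p = 0.00640). It kept the threshold in 11 of 11 fits that left out a library, but neither batch alone gave a call, at 0.73 and 1.09 (edgeR, adjusted p = 0.0609 and 0.191).

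Of the neighbouring ADP receptor genes, P2ry13 (ENSMUSG00000036362) was low, at 5.45, 6.96, 7.09, 7.63 and 8.31 CPM in controls, and at 8.61, 11.3 and 15.3 CPM for the lowest, median and highest GA-Camk2a library. Those groups did not overlap. Its log2 fold change was 0.66 ± 0.22 (SE; edgeR, adjusted p = 0.0484). The P2ry13 call was lost in 9 of 11 fits that left out a library (edgeR, adjusted p up to 0.140) and held without GA-Camk2a 30 or 35. DESeq2 did not call it (adjusted p = 0.131 with batch).

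P2ry12 (ENSMUSG00000036353), the receptor by which microglial processes follow ADP, was at 30.0, 36.02, 37.2, 40.0 and 41.02 CPM in controls. In GA-Camk2a cortex its lowest, median and highest levels were 32.9, 36.7 and 49.4 CPM. The groups overlapped, and mouse 34 alone lay far above every control. The log2 difference of P2ry12 was 0.07 ± 0.13 (SE), with a 95% interval of -0.21 to 0.35 (edgeR, adjusted p = 0.802).

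Siglech (ENSMUSG00000051504), a sialic acid binding lectin of microglia that signals through Tyrobp, was at 7.63, 8.10, 11.9, 13.6 and 14.5 CPM in controls. The GA-Camk2a libraries spanned 9.33 to 28.5 CPM around a median of 18.5 CPM, and the groups overlapped. Its log2 fold change was 0.70 ± 0.23 (SE; edgeR, adjusted p = 0.0466). This call was lost in 8 of 11 fits that left out a library (edgeR, adjusted p up to 0.135), all but those without control 20, GA-Camk2a 34 or GA-Camk2a 35, and Siglech was at 0.86 in batch 1 and 0.25 in batch 2. Selplg, the gene of the selectin ligand PSGL-1, spanned 18.7 to 30.0 CPM in controls and 17.2 to 38.3 CPM in GA-Camk2a mice, a log2 difference of 0.28 ± 0.19 (SE; edgeR, adjusted p = 0.392). Tmem119 was at 4.66, 9.50 and 12.6 CPM for the lowest, median and highest GA-Camk2a library, a log2 difference of -0.14 ± 0.23 (SE; edgeR, adjusted p = 0.753).

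Olfml3 (ENSMUSG00000027848), a secreted olfactomedin-like protein gene, had the largest estimate of the 9 in cortex. Controls were at 11.4, 12.2, 12.7, 12.7 and 16.2 CPM, and the lowest, median and highest GA-Camk2a library at 13.2, 27.3 and 37.99 CPM. The lowest GA-Camk2a library fell among the controls, so the groups overlapped. The log2 fold change was 1.08 ± 0.24 (SE), or 2.11-fold with a 95% interval of 1.498 to 2.96 (edgeR, adjusted p = 0.00387). Olfml3 kept the threshold with any 1 of the 11 libraries left out and in batch 1 alone, but not in batch 2 alone (0.85; edgeR, adjusted p = 0.238). Fibroblasts also make Olfml3, and of 8 endothelial and fibroblast genes tested in cortex 1 rose, Dcn, by 0.61 (edgeR, adjusted p = 0.00337). The summed level of that list was 133 to 254 CPM in controls and 160 to 272 CPM in GA-Camk2a cortex, and its part in the Olfml3 result was not tested.

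Sall1 (ENSMUSG00000031665), the transcription factor of microglial identity, spanned 2.53 to 8.06 CPM in controls and 3.25 to 9.49 CPM in GA-Camk2a cortex. Its log2 difference was 0.31 ± 0.28 (SE), with a 95% interval of -0.28 to 0.89 (edgeR, adjusted p = 0.538). It rested on 5 to 23 counts per cortex library.

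In hippocampus, 2 of the 9 genes were higher in GA-Camk2a mice, Cx3cr1 and Gpr34, and 0 were lower (edgeR, adjusted p under 0.05). Of 14884 genes tested, 4.97% were called higher and 5.97% lower. The median log2 fold change of the 9 genes was 0.48, against 0.02 over all genes tested. Without mouse 41 the number of members called was 1, Cx3cr1, and the median 0.46. The call of Gpr34 was the one that depended on single libraries.

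Cx3cr1 was at 19.0, 20.5, 21.2 and 27.4 CPM in the 4 control hippocampi. Its lowest, median and highest GA-Camk2a levels were 29.4, 43.5 and 59.5 CPM. As in cortex, every GA-Camk2a library was above every control. The rise was 0.93 ± 0.15 on the log2 scale (SE), 1.91-fold with a 95% interval of 1.52 to 2.39 (edgeR, adjusted p = 0.00108), and 0.93 without mouse 41 (edgeR, adjusted p = 0.00246). It passed in 10 of 10 fits that left out a library. In batch 1 alone, with 2 controls, Cx3cr1 was at 0.80 and did not pass (edgeR, adjusted p = 0.166), and in batch 2 alone it was at 1.06 (edgeR, adjusted p = 0.0128).

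Gpr34 was at 10.3, 10.4, 11.9 and 14.9 CPM in controls. Its lowest, median and highest GA-Camk2a levels were 14.04, 19.9 and 22.8 CPM. One GA-Camk2a library lay below the highest control. Its log2 fold change was 0.62 ± 0.17 (SE; edgeR, adjusted p = 0.0299). The call was lost in 7 of 10 fits that left out a library, among them the one without mouse 41 (0.58; edgeR, adjusted p = 0.0677), and held without control 11, GA-Camk2a 16 or GA-Camk2a 30. The highest adjusted p, 0.135, came without control 20. Gpr34 also lost its call without a filter on low counts (0.54; edgeR, adjusted p = 0.119), with thinned counts (0.61; edgeR, adjusted p = 0.177) and in batch 1 alone (0.35; edgeR, adjusted p = 0.620), and passed in batch 2 alone (0.93; edgeR, adjusted p = 0.0344).

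Sall1 had an estimate as large as that of Cx3cr1 and more spread. Controls were at 4.33, 4.56, 5.94 and 9.09 CPM, and GA-Camk2a libraries at 6.13, 12.3 and 19.5 CPM for the lowest, median and highest. The groups overlapped. The log2 difference was 0.92 ± 0.30 (SE; edgeR, adjusted p = 0.0637), and 0.91 without mouse 41 (edgeR, adjusted p = 0.0993). Sall1 passed without GA-Camk2a 30, at 1.09, and without GA-Camk2a 35, at 1.03 (edgeR, adjusted p = 0.0163 and 0.0478), and so it did with DESeq2 without covariates (0.96, adjusted p = 0.0448) and with edgeR without a filter on low counts (0.84, adjusted p = 0.0189).

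P2ry13 spanned 3.88 to 9.09 CPM in control and 7.25 to 17.7 CPM in GA-Camk2a hippocampus, a log2 difference of 0.70 ± 0.29 (SE; edgeR, adjusted p = 0.141), and 0.70 without mouse 41 (edgeR, adjusted p = 0.196). P2ry12 was at 33.0, 35.3, 37.9 and 39.3 CPM in controls and at 24.5, 30.2 and 50.7 CPM for the lowest, median and highest GA-Camk2a library. The highest P2ry12 library was mouse 41, and 4 of the other 5 lay below every control. With all libraries the log2 difference of P2ry12 was -0.16 ± 0.15 (SE; edgeR, adjusted p = 0.570), with a 95% interval of -0.49 to 0.17. Without mouse 41 it was -0.31 (edgeR, adjusted p = 0.154).

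Siglech (0.39 ± 0.19), Olfml3 (0.33 ± 0.23) and Tmem119 (0.48 ± 0.25) had positive log2 differences in hippocampus and Selplg a negative one (-0.17 ± 0.19), all with SE. None of these 4 passed (edgeR, adjusted p = 0.219, 0.413, 0.254 and 0.636). Siglech was at 8.77 to 17.1 CPM in controls and 12.2 to 17.4 CPM in GA-Camk2a mice, Olfml3 at 12.99 to 22.7 and 13.5 to 32.4 CPM, and Selplg at 22.1 to 29.1 and 14.3 to 31.9 CPM. The genotypes overlapped for each of them, and every control of Selplg lay within its GA-Camk2a range. Tmem119 was at 5.13, 6.38, 7.79 and 8.32 CPM in controls. Its lowest, median and highest GA-Camk2a levels were 6.69, 9.34 and 14.7 CPM, again with mouse 41 the highest. Without mouse 41, Tmem119 was at 0.35, Olfml3 at 0.21, Siglech at 0.46 and Selplg at -0.24 (edgeR, adjusted p = 0.459, 0.648, 0.164 and 0.520).

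**Figure D2:**
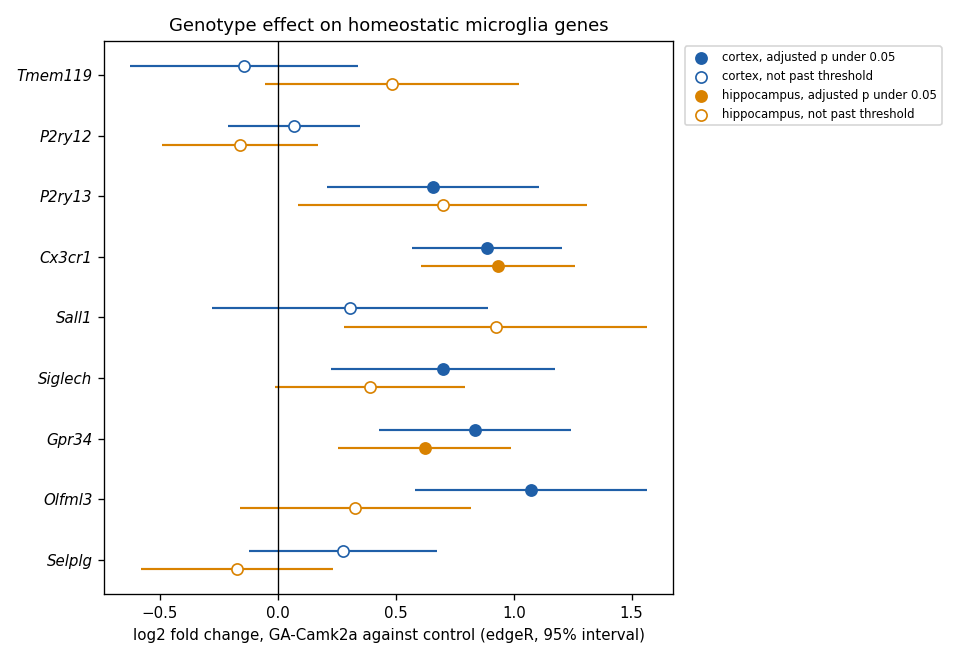
Log2 fold change of each homeostatic microglia gene, GA-Camk2a against control, with its 95% interval, in cortex and hippocampus (edgeR with batch as a covariate; filled points have an adjusted p under 0.05). Cx3cr1 (0.89 and 0.93) and Gpr34 (0.84 and 0.62) are filled in both tissues, and the P2ry12 intervals include 0 in both.

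Summed over the 9 genes, controls held 131 to 146 CPM in cortex and 132 to 155 CPM in hippocampus. GA-Camk2a libraries held 157 to 214 CPM in cortex, above every control, and 151 to 226 CPM in hippocampus (151 to 221 CPM without mouse 41), where the genotypes overlapped. P2ry12 had the highest mean of the 9 in both control tissues and in GA-Camk2a cortex (37.997 CPM, beside 36.8 CPM for Cx3cr1), and Cx3cr1 in GA-Camk2a hippocampus (43.2 CPM, beside 33.9 CPM for P2ry12). For complete separation in CPM, 2 members in cortex, Cx3cr1 and P2ry13, and 1 in hippocampus, Cx3cr1, had every GA-Camk2a library above every control. The same held for 3.50% of genes tested in cortex and 5.60% in hippocampus.

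Whether the effect of genotype itself differed between cortex and hippocampus was tested next, and this passed for 0 of the 9 genes, where it passed for 0.400% of 14751 genes (edgeR, adjusted p under 0.05). DESeq2 gave 0 members as well, and at an unadjusted p under 0.05 edgeR gave 1, Olfml3, where 10.0% of all genes tested passed. Its effect was smaller in hippocampus by a log2 difference of -0.77 ± 0.36 (SE; edgeR, adjusted p = 0.470). For Tmem119 the difference was 0.63 ± 0.35 (SE; edgeR, adjusted p = 0.564), with a 95% interval of -0.08 to 1.35. For Cx3cr1 it was 0.02, with a 95% interval of -0.46 to 0.49. Without mouse 41 of hippocampus 0 members passed as well, with values from -0.84 for Olfml3 to 0.63 for Sall1. The calls made in cortex and not in hippocampus, those of P2ry13, Siglech and Olfml3, are thus not shown to differ between the tissues.

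The 9 genes were also read beside other transcripts of microglia. Of 12 pan-microglia genes, which microglia make in most states, 10 of 11 tested rose in cortex and 11 of 12 in hippocampus, and 0 fell. Their median log2 fold changes were 1.72 and 1.46. The rises were unequal, from 0.59 to 1.99 in cortex and from 0.28 to 1.74 in hippocampus. Of 18 genes of activated microglia, 17 of 17 tested rose in cortex and 17 of 18 in hippocampus, with medians of 2.11 and 1.87. Without mouse 41 the hippocampus counts were 11 of 12 and 17 of 18, with medians of 1.35 and 1.83. Over all genes tested with all libraries, 6.35% were called higher in cortex and 4.97% in hippocampus. Cst7, a cysteine protease inhibitor of the activated state, rose by 3.87 ± 0.30 and 3.47 ± 0.34 on the log2 scale (SE; edgeR, adjusted p = 8.82e-09 and 1.93e-05), and C1qa, a complement subunit of the pan-microglia list, by 1.99 ± 0.13 and 1.501 ± 0.13 (SE; edgeR, adjusted p = 1.06e-09 and 6.69e-06). The largest estimate among the 9 homeostatic genes, 1.08 for Olfml3 in cortex, lay below both list medians of that tissue.

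Other genes known for the homeostatic state resembled the 9. Of 18 such genes, 6 of 12 tested rose in cortex and 6 of 16 in hippocampus, and 0 fell, with medians of 0.67 and 0.59. Rnase4, a secreted ribonuclease gene, rose by 0.79 and 0.86 and the transporter gene Slco2b1 by 1.08 and 0.65 (edgeR, adjusted p up to 0.0475). Without mouse 41, 5 of 17 genes of this list rose in hippocampus, with a median of 0.52. The hippocampus call of Slco2b1 was lost without mouse 41 (edgeR, adjusted p = 0.0874) and in 8 of the other 9 fits that left out a library, and held without GA-Camk2a 30. Fcrls rose in cortex, by 0.99 (edgeR, adjusted p = 0.00230), and was at 0.10 in hippocampus, where it did not pass. Cd33 was tested in hippocampus alone, where it rose by 1.68 (edgeR, adjusted p = 0.00120).

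**Figure D3:**
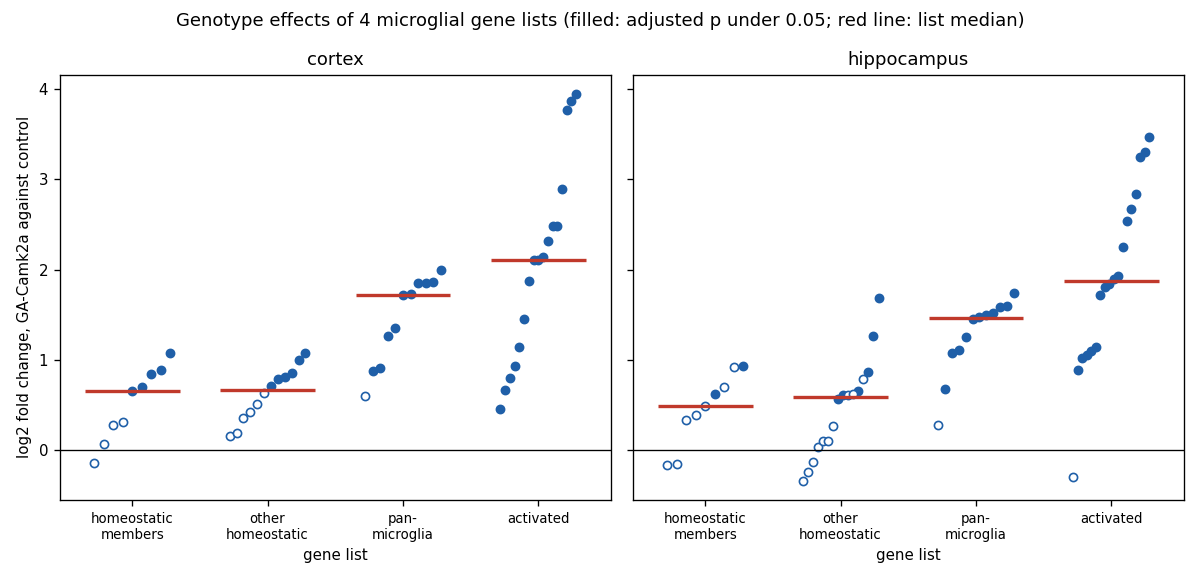
Log2 fold change, GA-Camk2a against control, of each tested gene in 4 microglial lists in cortex and hippocampus (filled: edgeR adjusted p under 0.05; red line: list median). The homeostatic members and the other homeostatic genes have medians of 0.66 and 0.67 in cortex and 0.48 and 0.59 in hippocampus, below those of pan-microglia (1.72 and 1.46) and activated microglia genes (2.11 and 1.87).

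The mean log2 CPM of 11 pan-microglia genes tested in both tissues was higher in GA-Camk2a mice by 1.43 in cortex and by 1.19 in hippocampus. When this mean was subtracted from each member in each library, all 9 members were lower in GA-Camk2a mice in both tissues, with a median difference of -0.81 in cortex and -0.77 in hippocampus (-0.80 without mouse 41). In cortex the differences ran from -1.68 for Tmem119 to -0.52 for Olfml3 and Cx3cr1, and in hippocampus from -1.43 for Selplg to -0.33 for Cx3cr1. Without mouse 41 these ran from -1.47 for P2ry12 to -0.33 for Cx3cr1. In each tissue 5 of the 9 had every GA-Camk2a library below every control on this relative scale. That count says little about the members, since 86.1% of all genes tested in cortex and 80.5% in hippocampus did the same once the rising mean was subtracted.

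P2ry12 was lower on the relative scale in both tissues, at -1.39 in each. Its level minus the pan-microglia mean was 0.13 ± 0.23 (SD, n = 5) in control and -1.26 ± 0.32 (SD, n = 6) in GA-Camk2a cortex. In hippocampus it was 0.17 ± 0.11 (SD, n = 4) and -1.22 ± 0.31 (SD, n = 6). The genotypes did not overlap in either tissue, as for most genes tested on this scale (86.1% and 80.5%). The CPM of P2ry12 gave log2 differences of 0.07 and -0.16, neither past the threshold, and the reference rose by 1.43 and 1.19, so the relative difference holds mostly the rise of the reference.

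The relative values depended on the genes they were set against. Against Csf1r, the receptor microglia need to survive, which rose by 0.88 in cortex and 0.67 in hippocampus, the median of the members was -0.25 and -0.21 (-0.24 in hippocampus without mouse 41). Against the mean of 12 other homeostatic genes it was 0.02 in cortex and -0.05 in hippocampus (-0.13 without mouse 41). Under these references and one without the C1q genes, P2ry12, Selplg and Tmem119 were lower in both tissues, with differences of -0.56, -0.36 and -0.85 in cortex and -0.67, -0.71 and -0.05 in hippocampus against the other homeostatic genes. Cx3cr1 was lower against both forms of the pan-microglia mean and higher against Csf1r, at 0.04 and 0.23, and against the other homeostatic genes, at 0.30 and 0.39. Without mouse 41 the hippocampus values against the other homeostatic genes were -0.80 for P2ry12, -0.78 for Selplg, -0.17 for Tmem119 and 0.34 for Cx3cr1.

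**Figure D4:**
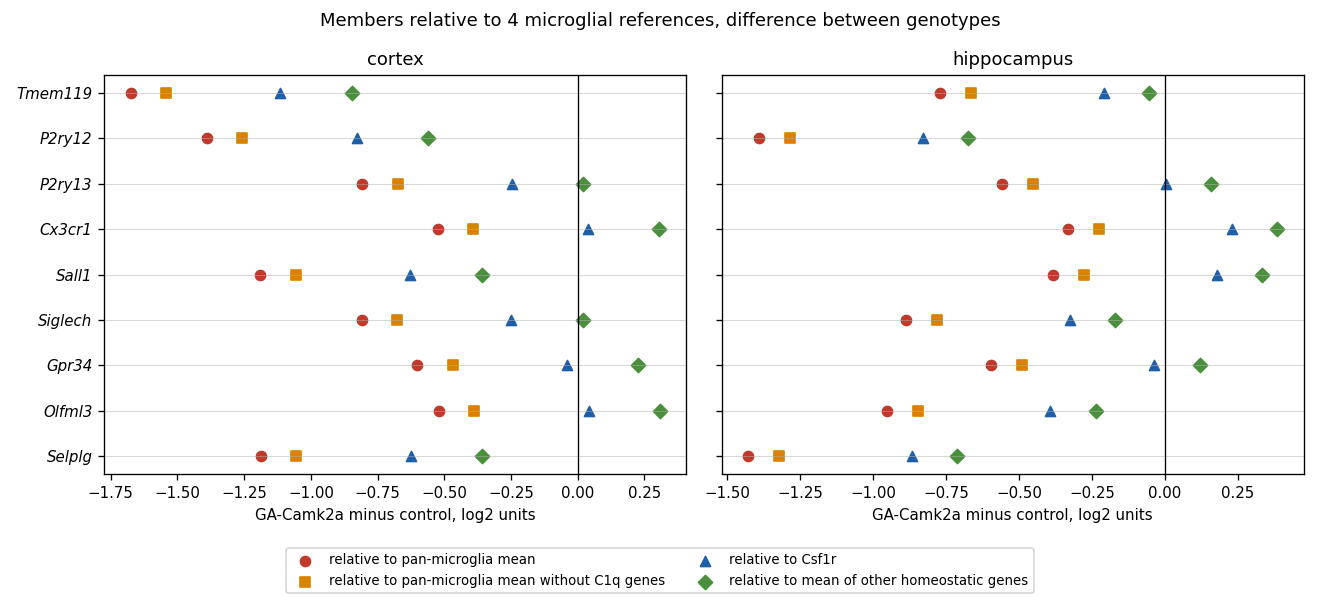
Difference between GA-Camk2a and control means of log2 CPM for each homeostatic microglia gene after subtracting 1 of 4 microglial references in each library, in cortex and hippocampus. P2ry12, Selplg and Tmem119 lie left of 0 for every reference, whereas Cx3cr1 changes side between the pan-microglia mean (-0.52 and -0.33) and the other homeostatic genes (0.30 and 0.39).

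Ligands and partners of the members moved in both directions. Cx3cl1, the neuronal ligand of Cx3cr1, fell by 0.50 on the log2 scale in cortex and by 0.63 in hippocampus (edgeR, adjusted p = 0.00433 and 0.00222), while its receptor rose in both. Excitatory neuron genes, which mark cells that make Cx3cl1 and Il34, had median log2 fold changes of -0.74 and -0.88, and their part in the values of these ligands was not tested. Tyrobp, the adaptor through which Siglech signals, rose by 1.85 and 1.60, and Csf1, a ligand of Csf1r, by 1.14 and 1.10. Il34, the ligand of Csf1r that neurons make, and Adora1, an adenosine receptor, fell in hippocampus, by 0.52 and by 0.68 (edgeR, adjusted p = 0.0255 and 0.000612), and their cortex values were -0.20 and -0.30 (edgeR, adjusted p = 0.371 and 0.0927). Of 14 genes in this list, 2 rose and 1 fell among 9 tested in cortex, and 2 rose and 3 fell among 10 tested in hippocampus, also without mouse 41, where Cx3cl1 fell by 0.63 and Il34 by 0.51 (edgeR, adjusted p = 0.00535 and 0.0492). Kcnk13, the potassium channel that P2ry12 gates, was at 0.01 and 0.20 (edgeR, adjusted p = 0.996 and 0.701).

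Few relatives of the nucleotide receptors were abundant enough to test. Of 13 other purinergic receptor genes, 0 of 2 tested passed in cortex and 1 of 4 in hippocampus. The 1 was P2ry6, a UDP receptor linked to phagocytosis, which rose by 1.118 ± 0.27 (SE; edgeR, adjusted p = 0.0155) and did not pass without control 20 or control 37 (adjusted p up to 0.0789). P2ry10 was at 0 counts in cortex of both genotypes.

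Among 12 transcription factor genes known in microglia, 4 rose and 3 fell of 11 tested in cortex, and 5 rose and 1 fell of 12 tested in hippocampus. Irf8 rose by 1.68 and 1.49 and Spi1, the gene of PU.1, by 1.14 and 1.495 (edgeR, adjusted p up to 0.00537). The genes that fell were Egr1 in both tissues and Mef2c and Etv5 in cortex. They are also high in neurons or astrocytes, and the part of those cells in these values was not tested. Egr1 fell by 1.39 and by 1.02. Without mouse 41 in hippocampus, 4 of these genes rose and 1 fell among 11 tested. Of 13 TGF-beta signalling genes, 2 of 12 tested rose in cortex, Tgfb1 by 1.39 and Tgfbr2 by 0.81, and 3 of 13 in hippocampus, Tgfbr2 by 1.33, Itgb8 by 0.70 and Tgfbr1 by 0.61, and 0 fell (edgeR, adjusted p up to 0.0122). Tgfbr1 did not pass without control 20 (edgeR, adjusted p = 0.0563).

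Over all 21 libraries, the members rose and fell together only in part. The Pearson r of their log2 CPM over 36 pairs had a median of 0.24, ranging from -0.34 for P2ry12 with Sall1 to 0.83 for Cx3cr1 with Gpr34. After subtracting group means the median was 0.09, with -0.43 for Siglech with Olfml3 as the lowest and 0.63 for Tmem119 with P2ry12 as the highest. The genes closest to the mean log2 CPM of the 9 members were Lyz2 (r = 0.90), Trem2 (0.89), Fcer1g (0.89), Itgb2 (0.89) and Cd68 (0.88), among 11442 genes over 21 libraries. These values are descriptions, since the libraries share tissue, genotype, batch and depth.

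Markers of other cells that could carry these transcripts were read beside the results. Blood leukocytes make Selplg and Cx3cr1, and their 13 marker genes summed to 34.9 to 51.8 CPM in control and 32.1 to 51.1 CPM in GA-Camk2a cortex. In hippocampus they summed to 17.7 to 21.7 CPM in controls and 23.3 to 557 CPM in GA-Camk2a mice. Without mouse 41 the GA-Camk2a range was 23.3 to 29.4 CPM, still above every control. Of 2 of these genes tested per tissue, 0 rose, and Trbc2 fell in cortex by 0.69 (edgeR, adjusted p = 0.0257), a call lost without control 11, 20 or 31 or GA-Camk2a 30 or 41 (adjusted p up to 0.123). Gzmb was at 0 counts in control cortex and Gzma in control hippocampus. In control mice, 1 of 3 genes of this list tested was lower in hippocampus than in cortex (edgeR, adjusted p under 0.05). The lowest log2 difference was -3.43. The share of leukocytes in the cortex sum was not tested, so that sum does not show whether these cells changed. Border macrophage genes, which mark macrophages of vessels and meninges, summed to 15.0 to 25.4 and 27.7 to 38.3 CPM in control and GA-Camk2a cortex. In hippocampus they summed to 15.8 to 23.1 and 25.98 to 138 CPM, or 25.98 to 55.1 CPM in GA-Camk2a mice without mouse 41. Of 9 such genes, Pf4 rose in cortex by 1.08, the 1 gene tested there, and Mrc1 and Pf4 rose in hippocampus among 4 tested, by 2.05 and 2.36 (edgeR, adjusted p = 0.00501 and 0.0449). Pf4 lost its call in 5 of 11 cortex fits that left out a library (without control 31, 37 or 38 or GA-Camk2a 34 or 35) and in 4 of 10 hippocampus fits (without control 20, 31 or 37 or GA-Camk2a 16), with adjusted p up to 0.119 and 0.245 in edgeR. Without mouse 41, 3 of 5 border macrophage genes tested rose in hippocampus, Mrc1 by 2.08, Ms4a7 by 1.99 and Pf4 by 1.11 (edgeR, adjusted p = 0.00934, 0.00379 and 0.0457). Endothelial and fibroblast genes summed to 179 to 234 CPM in control hippocampus. In GA-Camk2a hippocampus without mouse 41 they summed to 273 to 345 CPM. The part of these cells in the results for Cx3cr1 and the other members was not tested.

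Excitatory neuron genes fell, 5 of 7 in cortex and 6 of 7 in hippocampus, and 4 of 8 astrocyte genes rose in each tissue, with the same hippocampus counts without mouse 41. Since CPM are shares of all counts, their part in the levels of the members was not tested.

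Some of the 9 genes share genomic space with another gene, and whether strand was used in counting is not given in the sources used here. In GENCODE M21 on GRCm38, P2ry12 and P2ry13 lie within Med12l on the opposite strand, Gpr34 within Cask on the opposite strand, and the model of Cx3cr1 overlaps Gorasp1, Csrnp1 and Xirp1 on the same strand and Wdr48 and Ttc21a on the opposite strand. The log2 difference of Cask was -0.26 in cortex and -0.24 in hippocampus (edgeR, adjusted p = 0.258 and 0.235). Med12l was too low to test in cortex and was at 0.12 in hippocampus (edgeR, adjusted p = 0.844), and Wdr48 was at 0.12 and -0.28 (edgeR, adjusted p = 0.833 and 0.406). Gorasp1 was at 0.18 and 0.06 (edgeR, adjusted p = 0.589 and 0.897), and Csrnp1, tested in hippocampus alone, at 0.32 (edgeR, adjusted p = 0.697). No values are given for Xirp1 and Ttc21a. The part of the overlapping genes in the values of the members was not tested.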

How the data were processed

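Prime-seq libraries of cortex (5 control, 6 GA-Camk2a) and hippocampus (4 control, 6 GA-Camk2a) were grouped by the labels, which also give mouse and batch. The deposited table holds raw gene counts that the authors made on GRCm39 with an added GFP sequence. The submitters' processing notes name FastQC 0.11.8, cutadapt 1.12, STAR and DESeq2 1.44, and the study also names zUMIs, a pipeline for unique molecular identifiers. Whether identifiers or reads fill the table is not given in the sources used here. The GFP row, of 64362 rows, stayed out of library sizes and tests, and 0 count columns were unused. Symbols came from GENCODE M21 by Ensembl number for 43308 genes, holding 96.1% of counts.

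Each tissue was fitted with edgeR 4.0.16 under R 4.3.3 (TMM, filterByExpr with a minimum count of 10, quasi-likelihood F test, batch as covariate), over all genes, with Benjamini-Hochberg adjustment and a threshold of 0.05. The difference between tissues was an interaction contrast over 21 libraries, and tissues were compared in 9 control libraries. Relative levels used log2 CPM with a prior count of 2. The fits were also run on simulated data. The simulation had the same scatter for every gene, no batch effect, and changes only in better counted genes. It therefore does not bear on the calls of the lowest members. Alternatives were upper quartile normalization, DESeq2 1.42.0 with and without covariates, no batch term, no filter, a minimum count of 30, limma 3.58.1 voom with quality weights, counts thinned to 1048201, either batch alone, other references, a prior count of 0.5, a replicate block and leaving out each library.

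The same mouse number marks the same animal in both tissues for 10 mice. Deviations of the 2 libraries of a mouse from their group means correlated with r from -0.15 to 0.23 (median 0.07). No pair of libraries in a group agreed within counting noise (chi-square per degree of freedom 2.10 to 15.1 over 46 pairs), so each was 1 replicate.

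The members and gene lists were chosen with earlier results of these data known. All members are named, and of each other list up to 4 genes past the threshold with the largest changes, plus genes at 0, the 5 genes most correlated with the members, and those of overlapping models. Genes of the lists that are named with values but did not pass (Kcnk13, Fcrls in hippocampus, Il34 and Adora1 in cortex) and Csf1r, Ms4a7 and Trbc2, as well as the P2ry12 and P2ry13 promoters, were chosen after their values were seen. A few genes of these lists are not reported here.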

Additional observations from a re-analysis of the deposited data

Results flagged for a closer look

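In 40 groups of member levels and reference means tested for a sample far from the others, 3 stood out, and chance alone flags about 1 in 20 groups. P2ry12 in GA-Camk2a cortex was at 49.4 CPM in mouse 34, well above the other 5 libraries of that group. Olfml3 in control cortex was at 16.2 CPM in mouse 11, above the other 4. The pan-microglia mean in GA-Camk2a hippocampus was 5.79 log2 CPM in mouse 30, below the other 5. Without mouse 34 the cortex log2 difference of P2ry12 was -0.0071 (edgeR, adjusted p = 0.985).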

How the results depend on the processing

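Depth limited the lowest members: the lowest library held 5 counts of Sall1, 6 of P2ry13 and 8 each of Tmem119 and Siglech. Cx3cr1 passed in both tissues under every alternative but batch 1 alone in hippocampus. Each fit with 1 batch holds 2 or 3 controls. The causes of the other shifts were not tested.

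In cortex, 3 members passed with DESeq2 with or without batch, no batch term, a minimum count of 30, limma-voom, thinned counts or batch 1 alone, and 1 in batch 2 alone. Only 5 members were tested at the minimum count of 30, 7 with thinned counts and 8 in batch 2, where Sall1 could not be fitted. The batches gave 876 and 230 genes. Leaving out a library gave 3 to 5 members and 1038 to 1526 genes. In hippocampus, 1 member passed with thinned counts, with 958 genes, and 0 in batch 1 alone, with 115 genes (1891 genes at an unadjusted p under 0.05). Batch 2 gave 681 genes. Leaving out a library gave 1 to 3 members and 1038 to 1831 genes, the lowest without control 31.

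For the difference between tissues 59 genes passed, against 127 and 98 with DESeq2 with and without covariates, 36 without batch, 159 without a filter, 92 at a minimum count of 30, 19 with thinned counts and 22 to 66 without 1 library, always with 0 members. With mouse as replicate block 67 genes and 0 members passed. Between tissues in controls, 2351 genes passed, 1392 with thinned counts, 1961 with the replicate block, and 1580 to 3168 without 1 library, with 0 or 1 member. The replicate block changed no member call.

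The member values that changed sign did not pass the threshold in the main or the alternative setting. Tmem119 in cortex was 0.027 in batch 1 alone and -0.25 to 0.058 without 1 library. P2ry12 in cortex was -0.090 in batch 2 alone and -0.034 to 0.12 without 1 library, and 0.11 in hippocampus with thinned counts. In the difference between tissues, P2ry13 was -0.67 with thinned counts and -0.21 to 0.27 without 1 library. Cx3cr1 was -0.0089 without a filter, -0.095 with thinned counts, -0.11 with the replicate block and -0.059 to 0.13 without 1 library. In control tissues, Siglech was 0.093 with the replicate block and -0.27 to 0.037 without 1 library, Selplg was -0.062 with limma-voom and -0.073 to 0.15 without 1 library, P2ry12 -0.13 to 0.0066, P2ry13 -0.49 to 0.081, Cx3cr1 -0.020 to 0.15 and Sall1 -0.051 to 0.51.

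The median relative level was -0.25 and -0.21 against Csf1r and 0.019 and -0.055 against other homeostatic genes, in cortex and hippocampus. Each reference was also tried, after seeing the data, together with leaving out mouse 41 in hippocampus, which gave -0.24 against Csf1r and -0.13 against other homeostatic genes. The median was -0.92 to -0.80 and -0.86 to -0.65 without 1 library. Against Csf1r, Cx3cr1 and Olfml3 were 0.037 and 0.040 in cortex, and P2ry13, Cx3cr1 and Sall1 were 0.0044, 0.23 and 0.18 in hippocampus. Against other homeostatic genes, P2ry13, Cx3cr1, Siglech, Gpr34 and Olfml3 were 0.021, 0.30, 0.019, 0.23 and 0.31 in cortex, and P2ry13, Cx3cr1, Sall1 and Gpr34 were 0.16, 0.39, 0.33 and 0.12 in hippocampus.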
